A study of Mus musculus with 4 samples.

Results

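The Tudor domain genes Tdrd1, Tdrd5, Tdrd6, Tdrd7, Tdrd9 and Tdrkh, which act mainly in germ cells, were examined for KDM5C occupancy at their promoters, with the broadly expressed Tudor gene Tdrd3 as a contrast. The genes were taken by name, and a peak was counted at a gene when its midpoint lay within 1 kb of any annotated transcription start site (TSS) of that gene. All 7 genes were found among the annotated genes, and they drew 7 of the 6916 WT peaks and 1 of the 44 KO peaks on assembled chromosomes. Chromatin occupancy of KDM5C (SMCX), a demethylase of histone H3 whose gene is X-linked, was profiled by ChIP-Seq with an anti-KDM5C antibody in mouse epiblast-like cells (EpiLCs), a culture model of the early epiblast, at day 2 of differentiation. The labels give the strain as C57BL/6J, whereas the study's methods name other backgrounds for its mutants, and which applies is unresolved. Both genotypes came from male embryonic stem cells that carry a deletion in Tsix, the antisense repressor of Xist. WT cells had an intact Kdm5c (wtSmcx) and KO cells lacked a functional one (koSmcx), and the 4 samples were an immunoprecipitate and its input for each genotype. The deposited data were 1 list of called peaks per genotype, so the values below carry no replicate error and the genotypes were not compared by a test. Per the study's methods, peaks of WT cells were called on pooled replicates, and those of KO cells on a single sample, so depth and genotype cannot be told apart. The sources differ on whether there were 1 or 2 KO replicates, and on whether replicates were technical duplicates or separate lines. Peak lists measure neither expression nor cell identity, so the loss of Kdm5c and the epiblast-like state were not checked here.

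Tudor domains bind methylated arginine or lysine residues. In germ cells, Tudor proteins gather on the arginine-methylated tails of Piwi proteins and hold them in nuage, the granules around mitochondria and nuclei where Piwi-interacting RNAs (piRNAs) are made and put to use against transposons. In somatic lineages most of these genes are silent. CpG-rich promoters of germline genes can be kept closed by DNA methylation and by repressors recruited through E-box and E2F-type sites. Neither was measured here. KDM5C removes methyl groups from H3K4me2 and H3K4me3, marks of active and poised promoters.

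The promoter sequences of the genes on which the results turn are given first, since they show what lies under the peaks, all of it inside the WT peak except for Tdrd6, where 155 of the 180 bases are. They are mm9 reference sequence written 5′ to 3′ on the strand of the gene. For Tdrd1 (chr19:56900519-56900698, plus strand) and Tdrd9 (chr12:113209590-113209769, plus strand), the 180 bases before the first TSS are shown because they hold the E-box CACGTG, in capitals:
Tdrd1: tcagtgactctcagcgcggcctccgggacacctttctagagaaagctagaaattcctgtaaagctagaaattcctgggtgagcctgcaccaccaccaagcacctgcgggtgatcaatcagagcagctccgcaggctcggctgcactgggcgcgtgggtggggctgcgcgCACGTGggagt
Tdrd9: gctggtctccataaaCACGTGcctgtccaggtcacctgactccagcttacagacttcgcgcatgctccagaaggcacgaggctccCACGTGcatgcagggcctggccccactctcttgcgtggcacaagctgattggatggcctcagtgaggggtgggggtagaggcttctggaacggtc

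For Tdrkh (chr3:94216986-94217165, plus strand) the 180 bases before the RefSeq start are shown, and for Tdrd6 (chr17:43767249-43767428, minus strand) those before the first TSS, because they hold no E-box but a GC box, GGGCGG, in capitals. For Tdrd3 (chr14:87815803-87815982, plus strand), 180 bases centred on the summit of its WT peak are shown, since that summit lay well upstream of the TSS, and capitals again mark GGGCGG:
Tdrkh: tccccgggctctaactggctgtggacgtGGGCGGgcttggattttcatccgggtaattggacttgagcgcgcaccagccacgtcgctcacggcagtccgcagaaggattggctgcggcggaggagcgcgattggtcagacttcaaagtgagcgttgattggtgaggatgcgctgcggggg
Tdrd6: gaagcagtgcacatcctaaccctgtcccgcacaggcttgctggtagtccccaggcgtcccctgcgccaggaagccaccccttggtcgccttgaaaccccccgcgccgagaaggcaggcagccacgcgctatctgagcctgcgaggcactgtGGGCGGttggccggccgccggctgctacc
Tdrd3: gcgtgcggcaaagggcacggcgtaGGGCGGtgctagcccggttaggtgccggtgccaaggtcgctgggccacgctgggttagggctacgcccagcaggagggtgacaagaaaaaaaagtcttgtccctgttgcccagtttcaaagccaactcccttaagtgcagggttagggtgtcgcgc

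At Tdrd5 (chr1:158233713-158233739, minus strand), 27 bases around the only match to the E2F-type motif GCGGGAA in any of these peaks are shown, with the match on the opposite strand in capitals:
Tdrd5: cacctgcgtcTTCCCGCggcttcggga

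Every germline Tudor gene had a WT peak at a TSS, 6 of 6, and 1 of the 6 had a KO peak. The members and the gene lists below were chosen with earlier results of these data known, so such shares only describe them. Among all 22367 protein-coding genes the share with a WT peak within 1 kb of a TSS was 24.0%, and the share with a KO peak was 0.0939%. These genes do not include Tdrd5, 1 of the 6, which the annotation used here lists as noncoding. Tdrd3 also had a WT peak and had no KO peak. The presence of a peak therefore did not part the germline genes from the broadly expressed one. Peak strength varied widely among the germline genes. The score, which is 10 times the −log10 of the q-value with decimals dropped, ranged from 50 at Tdrd7 to 874 at Tdrd1, with a median of 162.5. The median was 82 over all WT peaks and 90 over the highest peaks of the 5358 protein-coding genes with a WT peak. Of the 6 germline genes, 4 had a peak above the WT median score and 2 had one at or above the WT 90th percentile, a score of 320. A promoter peak of that height was found at 2.79% of protein-coding genes.

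**Figure D1:**
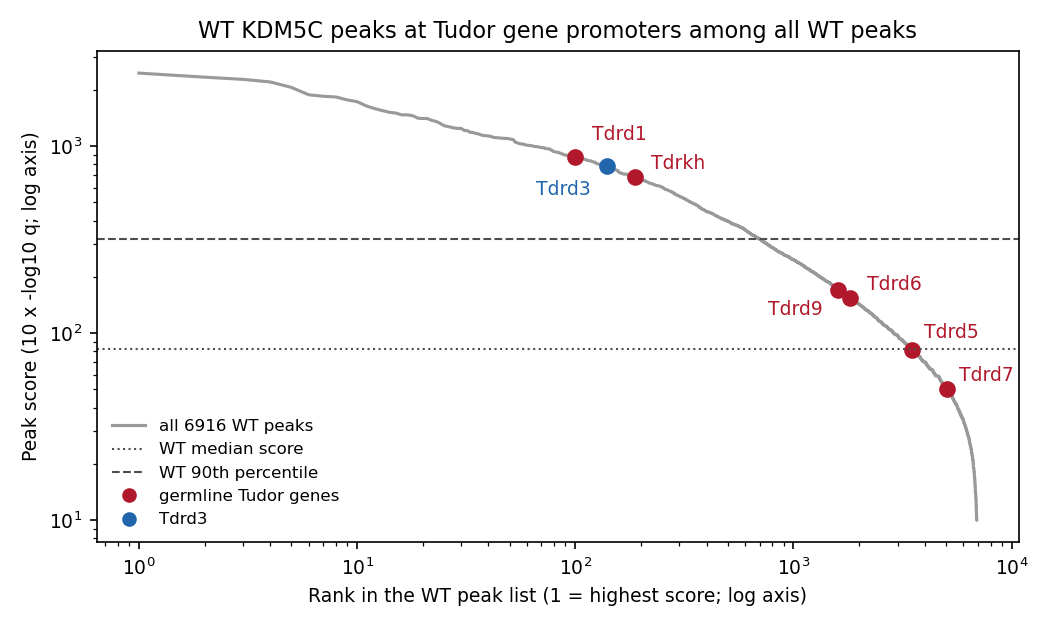
Score of each WT peak (log axis) against its rank in the WT list (log axis), with the germline Tudor genes in red, Tdrd3 in blue, the WT median score of 82 as a dotted line and the WT 90th percentile of 320 as a dashed line. Tdrd1, Tdrd3 and Tdrkh lie above the dashed line, Tdrd9 and Tdrd6 between the lines, Tdrd5 just below the dotted line and Tdrd7 well below it.

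Tdrd1 encodes a scaffold of nuage that binds the Piwi protein MILI. Its peak was the highest of the 7, at a score of 874 and 10.9-fold enrichment over input. It spanned chr19:56900422-56901183, 762 bp, and ranked 100 among WT peaks, above 98.6% of them. The summit lay in the 5′ UTR of 1 of the 4 annotated transcripts, 31 bp upstream of the nearest TSS. The peak covered the cluster of 3 TSSs at the start of the gene (chr19:56900699-56944502), whereas the remaining TSS, 4400 bp from the midpoint, had none.

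Tdrkh encodes a protein anchored in the outer mitochondrial membrane that holds Piwi proteins while the 3′ ends of piRNA precursors are trimmed. Its WT peak scored 684 at 8.81-fold enrichment and ranked 187, above 97.3% of WT peaks. At chr3:94216398-94217569 it was the widest of the 7, with 1172 bp. Its summit lay in the 5′ UTR, 60 bp downstream of the TSS nearest the midpoint, with the other annotated TSS of the gene in between. The peak also covered the TSS of 1700040D17Rik, a noncoding gene on the opposite strand whose TSS lay 178 bp from the midpoint, so the peak cannot be assigned to Tdrkh alone.

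Tdrkh was the only one of the 7 genes with a peak in KO cells. The KO peak spanned chr3:94217169-94217573, 405 bp, and 401 bp of it, or 99.0%, lay inside the WT peak, of which they made up 34.2%. Its summit lay in an intron of Tdrkh, 71 bp from the WT summit, and the peak did not reach the TSS of 1700040D17Rik. It was close to the calling limit: its q-value was 0.0608, where the largest in the KO list was 0.0948, its score was 12 and its rank 41 of 44. The fold enrichment was 2.83, beside a KO median of 2.71. Among all WT peaks, 43, or 0.622%, overlapped a KO peak. As the KO list held only 44 peaks, overlap with a WT peak was not particular to the KO peak at Tdrkh. The 200 bp around the KO summit had 1 place in the genome, as did the 200 bp around each of the 7 WT summits, when matches of 90% identity or more across 80% or more of the bases were counted.

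Tdrd9, a helicase that works with the nuclear Piwi protein MIWI2, and Tdrd6, which organizes the chromatoid body of spermatids, had peaks of intermediate height. The Tdrd9 peak (chr12:113209486-113209922, 437 bp) scored 171 at 6.11-fold enrichment, with its summit in no annotated gene, 89 bp upstream of the only TSS. The Tdrd6 peak (chr17:43766646-43767403, 758 bp) scored 154 at 5.79-fold enrichment. They ranked 1607 and 1824 and stood above 76.5% and 73.5% of WT peaks. The Tdrd6 summit lay 217 bp downstream of the nearest TSS, in a coding exon of 3 transcripts, and was the only one of the 7 in coding sequence. An internal TSS of a noncoding Tdrd6 transcript, 9590 bp from the midpoint, had no peak.

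Tdrd5 and Tdrd7 had the lowest peaks. Tdrd5, needed for nuage and for silencing of LINE-1 elements in spermatogenesis, had a peak of score 81 and fold enrichment 3.67 at chr1:158233384-158233769, 386 bp. This was just under the WT median score, with 48.4% of WT peaks below it. The annotation used here lists Tdrd5 as a noncoding gene, whereas RefSeq lists it as protein-coding. The RefSeq start, placed on mm9 by exact match of its promoter sequence, was the same base as the nearest TSS, 81 bp downstream of the summit. Tdrd7, which takes part in the remodelling of germ granules and is also known for a role in the lens, scored 50 at 2.90-fold enrichment at chr4:45984863-45985245, 383 bp. It stood above 26.6% of WT peaks. Of its 7 annotated TSSs, 3 lay within 1 kb of the midpoint, the nearest 38 bp downstream of the summit, and the most upstream TSS, 6848 bp from the midpoint, had no peak. The 3 most downstream TSSs had none either. With RefSeq starts the nearest lay 102 bp downstream of the summit.

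Tdrd3 binds methylated arginines on histone and RNA polymerase tails and works with topoisomerase 3 beta in many tissues. Its WT peak (chr14:87815542-87816665, 1124 bp) scored 782 at 9.54-fold enrichment and ranked 140, between those of Tdrd1 and Tdrkh. Its summit lay 497 bp upstream of the nearest TSS, in no annotated gene. The summits of the 6 germline genes lay 31 to 217 bp from the TSS nearest to each summit. The peak as a whole lay much like that of Tdrkh: their midpoints were 287 and 235 bp upstream of the TSS and their widths 1124 and 1172 bp. The median distance from the summit to the nearest TSS was 166 bp over all protein-coding genes with a WT peak. RefSeq gave the same TSS for Tdrd3, so the distance did not depend on which annotation was used.

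**Figure D2:**
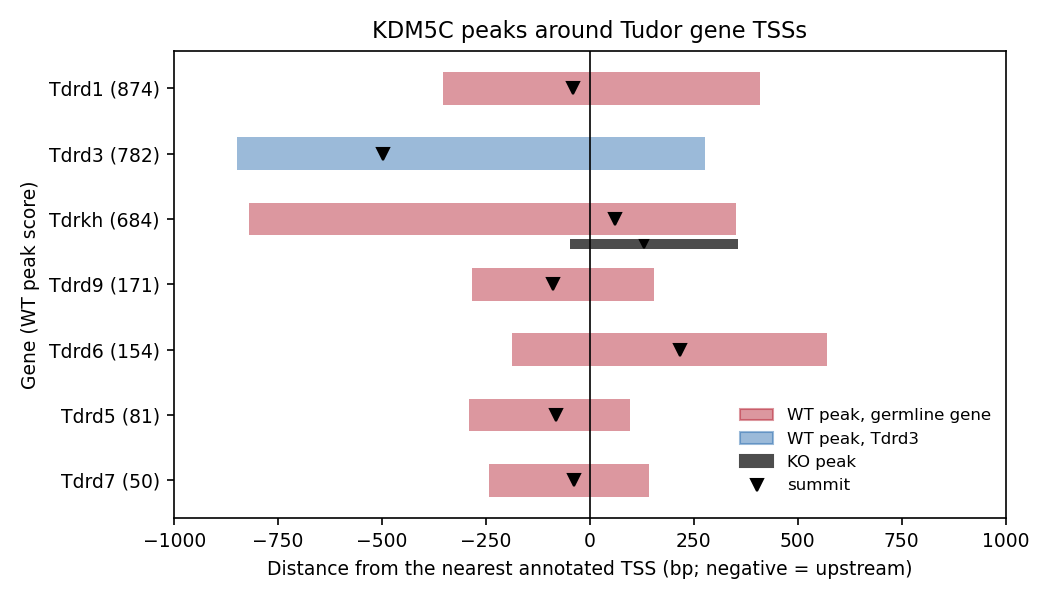
Extent of each WT peak (red for germline Tudor genes, blue for Tdrd3) and of the KO peak at Tdrkh (dark bar). Distances are in bp from the annotated TSS nearest the midpoint of the WT peak, with upstream to the left. Triangles mark summits, and the WT score follows each gene name. The 6 germline summits lie within 217 bp of the TSS, that of Tdrd3 lies 497 bp upstream, and the KO peak at Tdrkh covers the downstream part of the WT peak.

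By score the genes ran in the order Tdrd1, Tdrd3, Tdrkh, Tdrd9, Tdrd6, Tdrd5 and Tdrd7, and fold enrichment gave the same order. With 1 WT list, the spread between replicates is unknown, so no neighbours in this order can be said to differ. All 7 midpoints were well inside the 1 kb window, the farthest being that of Tdrd3 at 287 bp. Outside it, peaks lay 4167 bp upstream of Tdrd1 and 4761 bp upstream of Tdrd9. The first (score 92, fold enrichment 3.93) was 148 bp from the TSS of A630007B06Rik. The second (score 59, fold enrichment 3.29) was 179 bp from the TSS of 2010107E04Rik. A peak of score 143 past the 3′ end of Tdrd1 lay 27 bp from the TSS of Vwa2. Of the 7, only Tdrd3 had a peak inside the gene and away from its TSSs, with a score of 89, in an intron 6995 bp from the nearest TSS (chr14:87863680-87864086). Tdrd5, Tdrd6, Tdrd7 and Tdrkh had no other peak within 5 kb of the gene.

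Of RefSeq starts, 10 at 6 of the 7 genes were placed on mm9, and 8 of these had the WT peak within 1 kb, covering all 6 genes. The Tdrkh start given by RefSeq lay 112 bp upstream of the WT summit.

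The genes most like each member were taken as the protein-coding genes next to it by score of the highest promoter peak, in the 1 WT list. Next to Tdrd1 (874) were Sil1 (875) and Boll (870), a germ cell RNA-binding factor. Fzd3 had the same score as Tdrd3 (782), and next to Tdrkh (684) were Pom121 (685) and Atic (679). Lower in the list many genes shared a score: 12 protein-coding genes had that of Tdrd9, 7 that of Tdrd6, 74 that of Tdrd5 and 32 that of Tdrd7.

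Base composition under the peaks was compared with that of all WT peaks over 500 bp around the summit. The ratio of observed to expected CpG was highest at Tdrd7, 1.01, and lowest at Tdrd9, 0.514, beside a median of 0.809 over WT peaks. Tdrd5 (0.944), Tdrkh (0.935), Tdrd6 (0.847) and Tdrd1 (0.826) were also above that median, and Tdrd3 (0.768) was below it. Among these genes a higher CpG ratio did not mean a higher score: those with the lowest scores, Tdrd7 and Tdrd5, had the highest ratios. Tdrd7 had a higher ratio than 90.4% of WT peaks, and Tdrd9 had a higher one than 11.6%. A relation between CpG ratio and score was not tested. GC content ran from 55.8% at Tdrd9 to 75.0% at Tdrd5, beside a WT median of 65.0%.

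**Figure D3:**
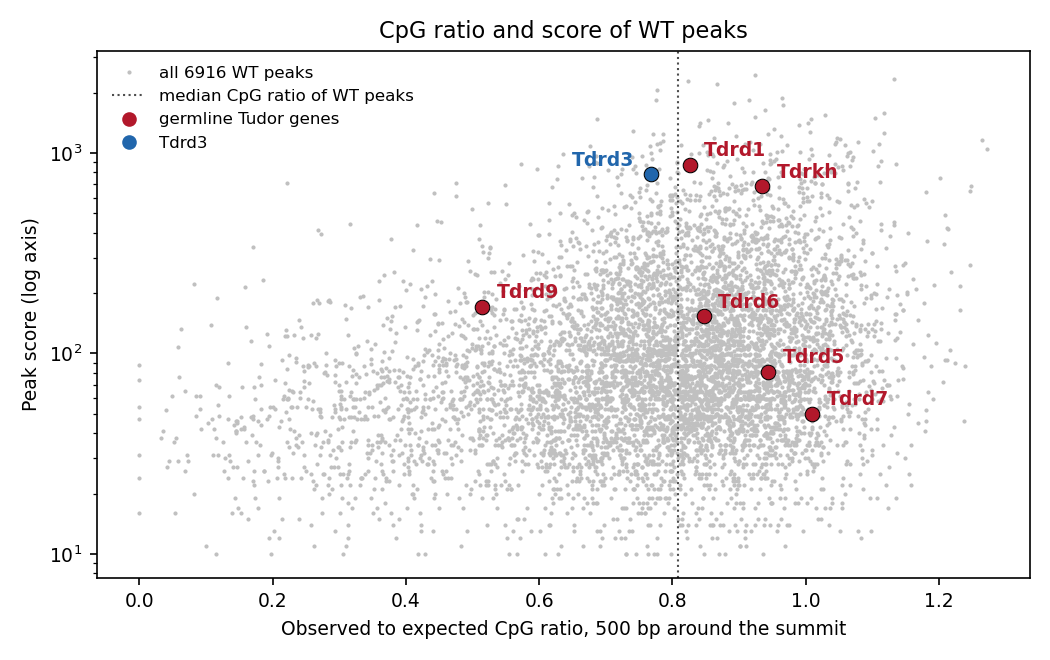
Score of each WT peak (log axis) against the observed to expected CpG ratio in 500 bp around its summit, with germline Tudor genes in red, Tdrd3 in blue and the median ratio of 0.809 as a dotted line. Tdrd9 stands apart on the left at 0.514, and Tdrd7 lies farthest right at 1.01 with the lowest score of the 7.

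Short motifs were searched on both strands within 300 bp around each summit, and no 2 matches overlapped at these genes. The E-box CACGTG was found at Tdrd1 and Tdrd9, 2 of the 6 germline genes, and at 20.6% of WT peaks. At Tdrd9 both E-boxes printed above lay within this window, the nearer 1 bp and the farther 71 bp from the summit. At Tdrd1 the E-box ended 41 bp from the summit. Tdrkh had an E-box 628 bp from the summit, inside its wide peak but outside the window. The NRF1-type motif GCATGCGC was found at Tdrd9 alone among the 7, 27 bp from the summit and between the E-boxes, and at 4.79% of WT peaks. The GC box GGGCGG was found at Tdrd7, Tdrkh and Tdrd3, and at 53.7% of WT peaks. The GC boxes printed for Tdrd6 and Tdrkh lay 274 and 259 bp from their summits, outside the window. Tdrkh was counted for other matches, 50 and 110 bp from its summit. The ETS-type motif CCGGAAG (11.2% of WT peaks), the E2F-type GCGGGAA (11.9%) and the CRE TGACGTCA (1.43%) were found within the window at none of the 7. The E2F-type match printed for Tdrd5 lay 163 bp from the summit, just outside it.

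Stk31 (score 937, fold enrichment 12.6), Rnf17 (score 555, fold enrichment 9.13) and Tdrd12 (score 209, fold enrichment 6.15) each had a WT promoter peak, 3 of the 3 with an annotated entry, beside 24.0% of protein-coding genes. Tdrd10 was listed too. None of the 3 had a KO peak, beside 0.0939% of protein-coding genes. All 3 had an E-box within 300 bp around the summit, beside 20.6% of all WT peaks, at promoters or not. Stk31 and Rnf17 are Tudor proteins of the testis, the first with a kinase domain and the second with a RING domain, and Tdrd12 is a helicase needed for secondary piRNAs. The score of Stk31 was higher than that of each of the 7 genes.

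Tudor genes with roles outside the germ line were occupied in part. Of 5 genes for RNA handling and related somatic roles, 3 had a WT peak: Lbr (score 164), Akap1 (score 156) and Smn1 (score 87), the spinal muscular atrophy gene. Snd1 and Smndc1 had none. Of 15 chromatin-binding Tudor genes, 6 had a WT peak, a share of 40.0%. Phf20 (score 625) and Uhrf2 (score 421) passed the WT 90th percentile, followed by Kdm4c (score 268), Ccdc101 (score 210), Phf20l1 (score 82) and Uhrf1 (score 48). No peak was called at Trp53bp1, Setdb1, Phf1, Mtf2, Phf19, Kdm4a, Kdm4b, Arid4a or Arid4b. Beside the 24.0% of all protein-coding genes, the shares were 100% of the 6 germline genes, 60.0% of the RNA-handling list and 40.0% of the chromatin list. With these list sizes no difference between lists was tested.

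Of 15 genes whose products work with the Tudor proteins, 12 had a WT peak and 0 a KO peak, beside 24.0% and 0.0939% of protein-coding genes. The median score of those with a peak was 596, and 7 passed the WT 90th percentile, beside 2.79% of protein-coding genes. Ddx4, the germ cell RNA helicase VASA, had a score of 1455 and ranked 18 in the WT list. Mov10l1 (994), a helicase for piRNA precursors, Fkbp6 (877), Mael (866), the piRNA methyltransferase Henmt1 (794, annotated here as 4921515J06Rik) and Ddx25 (669) also had high scores. Of the Piwi genes themselves, Piwil2 (MILI) had a score of 523 and Piwil1 (MIWI) one of 91, and Piwil4 (MIWI2) had no peak. Pld6 (105), Exd1 (101) and Gtsf1 (39) were lower, and no peak was called at Asz1. Prmt5, the enzyme that makes the dimethylarginines read by Tudor domains, had no peak, whereas its partner Wdr77 had one of score 67. An E-box was found at 7 of the 12 occupied promoters, beside 20.6% of all WT peaks, at promoters or not.

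**Figure D4:**
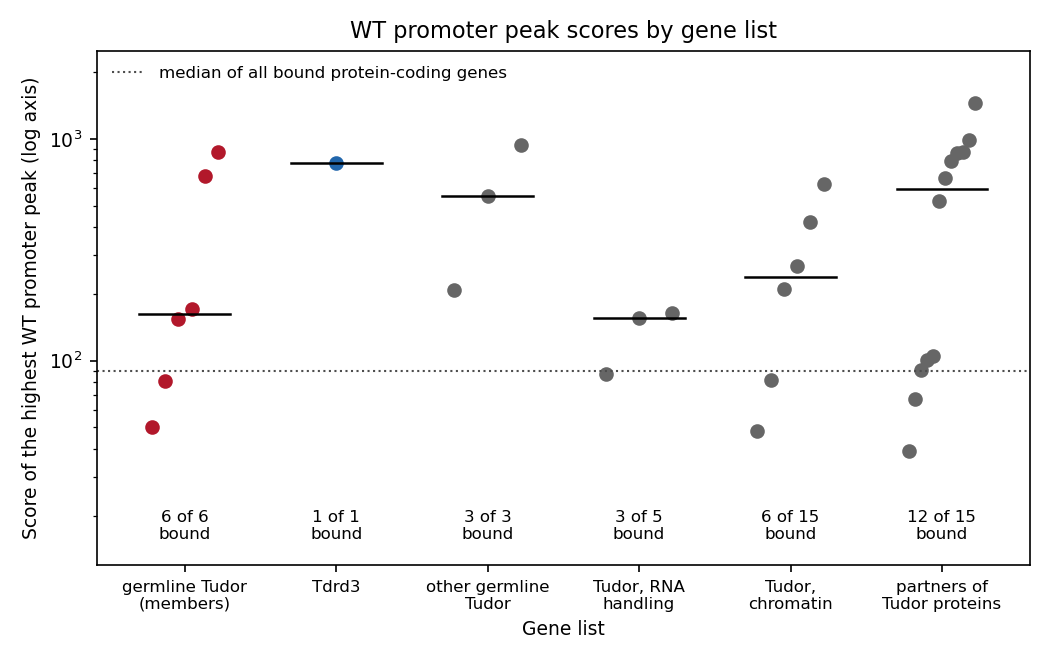
Score of the highest WT promoter peak (log axis) for each gene with a peak in the 6 gene lists, with a black bar at each list's median, the number of annotated genes with a peak below, and a dotted line at 90, the median over all protein-coding genes with a WT peak. The germline Tudor genes run from 50 to 874 and the partners of Tudor proteins from 39 to 1455, so both span nearly the whole range of the other lists.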

How the data were processed

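KDM5C ChIP-Seq had been carried out in day 2 EpiLCs of 2 genotypes, each with an immunoprecipitated and an input sample, grouped by their titles. Per the study's methods, 50-base single-end reads were aligned by the authors to mm9 with Bowtie (version 1.1.2 in the submitters' processing notes), only unique reads were kept, and peaks were called with MACS2 (version 2.1.0.20140616) against input. Unique mapping can lose peaks in repeated sequence. The labels describe EpiLC conversion alone, while the study's methods place day 2 after that stage, and which applies is unresolved. For each peak the authors deposited a score, the ratio of signal to input (fold enrichment), the summit position and p- and q-values as −log10. The score was checked to be 10 times the −log10 q with decimals dropped in all 6960 peaks on chromosomes. The study's reporting summary states a minimum depth for its samples, but the peak lists hold no read counts, so the depth behind each peak is unknown and intervals and floors that need it are not given. The lists were called separately, so fold enrichments and scores of WT and KO were not compared.

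Peaks on chromosomes 1 to 19, X and Y (counted from 1, mm9) were assigned to genes with GENCODE M1 on NCBIM37, the same assembly (37273 genes, 95458 transcripts). Assignment was tested on simulated data. Promoter sequences of RefSeq (GRCm38.p6) were placed on mm9 by exact match. No statistical test was applied. The members and gene lists were chosen with earlier results of these data known. Named genes were the 7 genes, genes with a TSS near theirs or their peaks, the listed genes, and neighbours by score. Alternatives were other windows, summits or any base of a peak, stricter thresholds and protein-coding transcripts only. Python 3.11.15, NumPy 2.4.6, pandas 2.3.3, SciPy 1.17.1, pysam 0.24.0, matplotlib 3.10.9 and BLAST 2.17.0 were used.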

Additional observations from a re-analysis of the deposited data

How the results depend on the processing

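Of 63 alternative values for 9 results, 51 stayed within the limits used (counts within 1.5 times, the median equal, the share inside its exact 95% binomial interval of 23.4 to 24.5%), 12 moved and 0 reversed. The interval served only as a tolerance and does not measure spread between replicates. With a score at or above the WT 90th percentile, 2 of the 6 germline genes kept a WT peak and 0 a KO peak, and the median score of their peaks was 779, since weaker peaks were removed. The same limit left 0 RNA-handling genes, 2 chromatin genes, 7 partner genes and 2.79% of protein-coding genes. With q below 0.01, the KO peak at Tdrkh was lost, leaving 0 germline genes with a KO peak, and 23.2% of protein-coding genes kept a WT peak. With protein-coding transcripts only, Tdrd5 dropped out, leaving 5 germline genes with a WT peak, and the median score was 171. The share of protein-coding genes was 21.8% at 500 bp and 25.0% at 2 kb. The WT peak at Tdrd3 was kept under all 7 alternatives. No paired analysis was possible because only 1 list of peaks was given for WT and 1 for KO cells.

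Without read counts or replicate lists, the error of each score is unknown. A gene without a called peak can still hold signal below the threshold, in both genotypes.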
